A study of Homo sapiens with 12 samples.

Results

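The 77 genes described here are those whose symbol starts with MRPL or MRPS among the 15798 genes of a ribosome profiling (Ribo-seq) table, and they were chosen by symbol, with earlier results of these data known. There were 49 MRPL genes, named after the large subunit of the mitochondrial ribosome, and 28 MRPS genes, named after the small subunit. HCT116 cells, a human colorectal carcinoma line, received either 100 nM trametinib, an inhibitor of the kinases MEK1 and MEK2 that activate ERK, or the solvent DMSO for 24 h. Cells of both treatments were then exposed to cycloheximide for 5 min, which holds cytosolic ribosomes on their mRNA. From each treatment there were 3 input libraries of fragmented mRNA and 3 libraries of ribosome footprints, the mRNA stretches that a ribosome shields from RNase, which gave 12 libraries in 4 groups. All values come from this single cell line.

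The mitochondrial ribosome translates the few mRNAs encoded by mitochondrial DNA, all of which code for subunits of the respiratory chain and ATP synthase. Its rRNAs are made in the mitochondrion, whereas its proteins are encoded in the nucleus, translated by cytosolic ribosomes and imported. The footprints on MRPL and MRPS mRNAs therefore belong to cytosolic ribosomes. Many of these proteins have counterparts in bacterial ribosomes (names in uL, bL, uS and bS), and others occur only in mitochondria (mL and mS). Symbols do not always give the place of the protein: MRPS30 and MRPS18A sit in the large subunit, and MRPS36 is a component of the 2-oxoglutarate dehydrogenase complex and not a ribosomal protein.

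Each input library held 2276693 to 2845568 counts and each footprint library 10127477 to 19181588, so input was the less precise assay. Of 10 ERK output genes, 9 fell in both assays, and DUSP6, an ERK phosphatase induced by ERK itself, went from a mean of 235 to 1.11 CPM (counts scaled by library size) in input. The epithelial markers EPCAM, CDH1, KRT8, KRT18, KRT19 and CDX2 were expressed, and VIL1 had no input counts. KRT19, KRT8 and CDH1 rose in input. Among markers of other cell types, PTPRC, CD3E and PECAM1 had at most 1 count in any DMSO input library. COL1A1 was detected at 11.3 CPM in DMSO input and 9.86 CPM in trametinib input.

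Members were measured unequally well, because reads shared by more than 1 gene symbol were not counted. In 72 of the 77 members at least 95% of all 28-base stretches of the reading frame occurred under no other symbol in the Gencode 44 transcripts. MRPL30 had no such stretch and was at 0 counts in 11 of 12 libraries. It was the only member left untested, so that 76 members (48 MRPL and 28 MRPS) were among the 10663 genes tested. MRPL12 was measured on 4.23% of its sequence, MRPL2 on 31.6%, MRPS28 on 70% and MRPS24 on 72.8%, and their levels are uncertain for that reason.

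In DMSO input the 72 well-measured members differed widely in level. Per kb of coding sequence they ran from 8.27 to 288 CPM, with a median of 95.8 CPM per kb and an SD of 0.94 on the log2 scale (mean over 3 libraries). The highest was MRPS21, a small-subunit protein of bacterial type, at 288 ± 10.8 CPM per kb (SD, n = 3). It was followed by MRPL42 at 224 ± 34.3 and MRPS23 at 217 ± 22.6 CPM per kb, which did not differ beyond their spread. The lowest was MRPL46, part of the central protuberance of the large subunit, at 8.27 ± 2.23 CPM per kb. Next came MRPL23, at the rim of the polypeptide exit tunnel, at 13.5 ± 4.38 CPM per kb, and MRPS6, a small-subunit protein of bacterial type, at 19.0 ± 3.13 CPM per kb. MRPL2, near the catalytic centre and not among the 72, had 15.9 ± 6.61 CPM per kb of its whole coding sequence, which understates its level because only 31.6% of that sequence could be counted. Across the 72 members, input and footprint levels per kb in DMSO correlated at r = 0.82 (Spearman's rho = 0.75), a description over genes that share libraries and coding lengths.

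Sequences around the annotated transcription starts are shown first, since mRNAs of cytosolic ribosomal proteins typically begin with a C followed by a run of pyrimidines, the 5′ terminal oligopyrimidine (TOP) motif that ties their translation to mTOR. A RefSeq promoter window was found for 68 of the 77 members. Of these, 5 (7.35%) began with C and at least 4 further pyrimidines, against 5.77% of 8717 tested genes and 43 of 63 cytosolic ribosomal protein genes (68.3%). The lines below give 15 bases before and 15 bases from the annotated start (GRCh38.p14, strand of the gene), with the pyrimidines of a TOP-like start in capitals. The first 3 are members with large footprint falls, the next 5 are all members with a TOP-like start, and RPS6 stands for the cytosolic ribosome. For MRPL15 and MRPL35, whose footprints also fell strongly, no window was found.
MRPS18B (chr6:30617825-30617854, plus strand): agttgcctttccgtcaattcctgtcctggg
MRPS10 (chr6:42217847-42217876, minus strand): caatcctgagaggtcgggaccggcaagatg
MRPL27 (chr17:50373170-50373199, minus strand): ttcgagaccggaagtgagtgatcgaaagca
MRPL44 (chr2:223957448-223957477, plus strand): gtcttccatcgttttCTCTCgtgcaatggc
MRPL45 (chr17:38297153-38297182, plus strand): ctcccttcccggcggCCTTTgcgggaacaa
MRPL53 (chr2:74472666-74472695, minus strand): ccgcctgcacgagttCTTCCggggcggagg
MRPS27 (chr5:72320226-72320255, minus strand): aacccgttggctgttCCTTTTggtacgctc
MRPS33 (chr7:141014938-141014967, minus strand): gggtagagggcgggcCTTCCgggacgaggg
RPS6 (chr9:19380222-19380251, minus strand): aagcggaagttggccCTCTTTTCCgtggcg
These starts come from the annotation and not from HCT116 cells, and a start that lies a few bases away would change the motif.

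In input, members lay lower after trametinib. None of the 76 was called higher and 19 were called lower (adjusted p under 0.05, edgeR's quasi-likelihood test with Benjamini-Hochberg adjustment over all genes tested), beside 15.4% of all genes tested called higher and 16.8% called lower. The same 0 for higher calls was reached at an unadjusted p under 0.05, where 32 members were lower, and with DESeq2 (15 lower) and limma (19 lower). At that unadjusted threshold, 4579 of the 10663 genes tested passed in either direction. The median log2 change was -0.35, or 78.3% of the DMSO level, against -0.00 over all genes tested. Large and small subunit moved by similar amounts, with 13 of 48 MRPL genes lower at a median of -0.37 and 6 of 28 MRPS genes lower at a median of -0.34. In bulk libraries such as these, fewer cells with a transcript and less of it per cell cannot be told apart. The number of calls varied when a library was left out. It fell to 12 without DMSO input replicate 2, and to 11, 8 and 10 without trametinib input replicates 1, 2 and 3. It rose to 25 without DMSO input replicate 1. The median log2 change of members stayed between -0.43 and -0.27 in these fits. Without DMSO input replicate 3, MRPL43 was called higher (log2 change 0.66), against 0.43 with all libraries.

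The 5 largest falls among the input calls were those of MRPL15, MRPS10, MRPS2, MRPL39 and MRPS23. MRPL15 (ENSG00000137547, chr8:54135241-54148514 in GRCh38), a large-subunit protein of bacterial type, had 56.2, 39.9 and 40.9 CPM in the DMSO input libraries 1 to 3 and 27.5, 13.2 and 21.5 CPM in the trametinib input libraries. All trametinib libraries thus lay below all DMSO libraries, with a log2 change of -1.13 (SE 0.26, edgeR adjusted p = 0.0046). MRPS10, a small-subunit head protein on chr6:42206807-42217861, had 90.2, 58.4 and 45.3 CPM in DMSO and 34.0, 29.8 and 29.4 CPM in trametinib input, a change of -1.06 (SE 0.24, edgeR adjusted p = 0.0048). Its DMSO replicate 1 stood well above the other DMSO libraries. MRPS2 (chr9:135499984-135504673), also of the small subunit, went from 88.1 ± 29.8 to 43.5 ± 12.7 CPM (SD, n = 3 each), a log2 change of -1.01 (SE 0.26), and was no longer called when trametinib replicate 2 was left out (edgeR adjusted p = 0.058). MRPL39 and MRPS23, both specific to mitochondria, fell to 54.3% and 56.7% of their DMSO levels.

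In footprints the fall was called in more members. Again 0 members were called higher, and 46 of 76 were called lower, beside 23.9% of all genes tested called higher and 25.6% called lower (edgeR). At an unadjusted p under 0.05, 0 were higher and 53 were lower, while 6004 of the 10663 genes tested passed in either direction. DESeq2 and limma called 0 higher and 46 and 48 lower. The median log2 change was -0.45, or 73.1% of DMSO, against -0.01 over all genes tested. In 53 members every trametinib footprint library lay below every DMSO footprint library (30.3% of all genes tested) and in 0 members above (29.3%). In input these counts were 32 below (23.2%) and 1 above (23.5%). With single footprint libraries left out, 34 to 58 members were called lower and 0 higher. Scaling by library totals in place of TMM moved the median of all genes to 0.16 and that of the members to -0.28, so members stayed below the bulk of genes, with 31 called lower and 1, MRPL45, called higher.

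**Figure D1:**
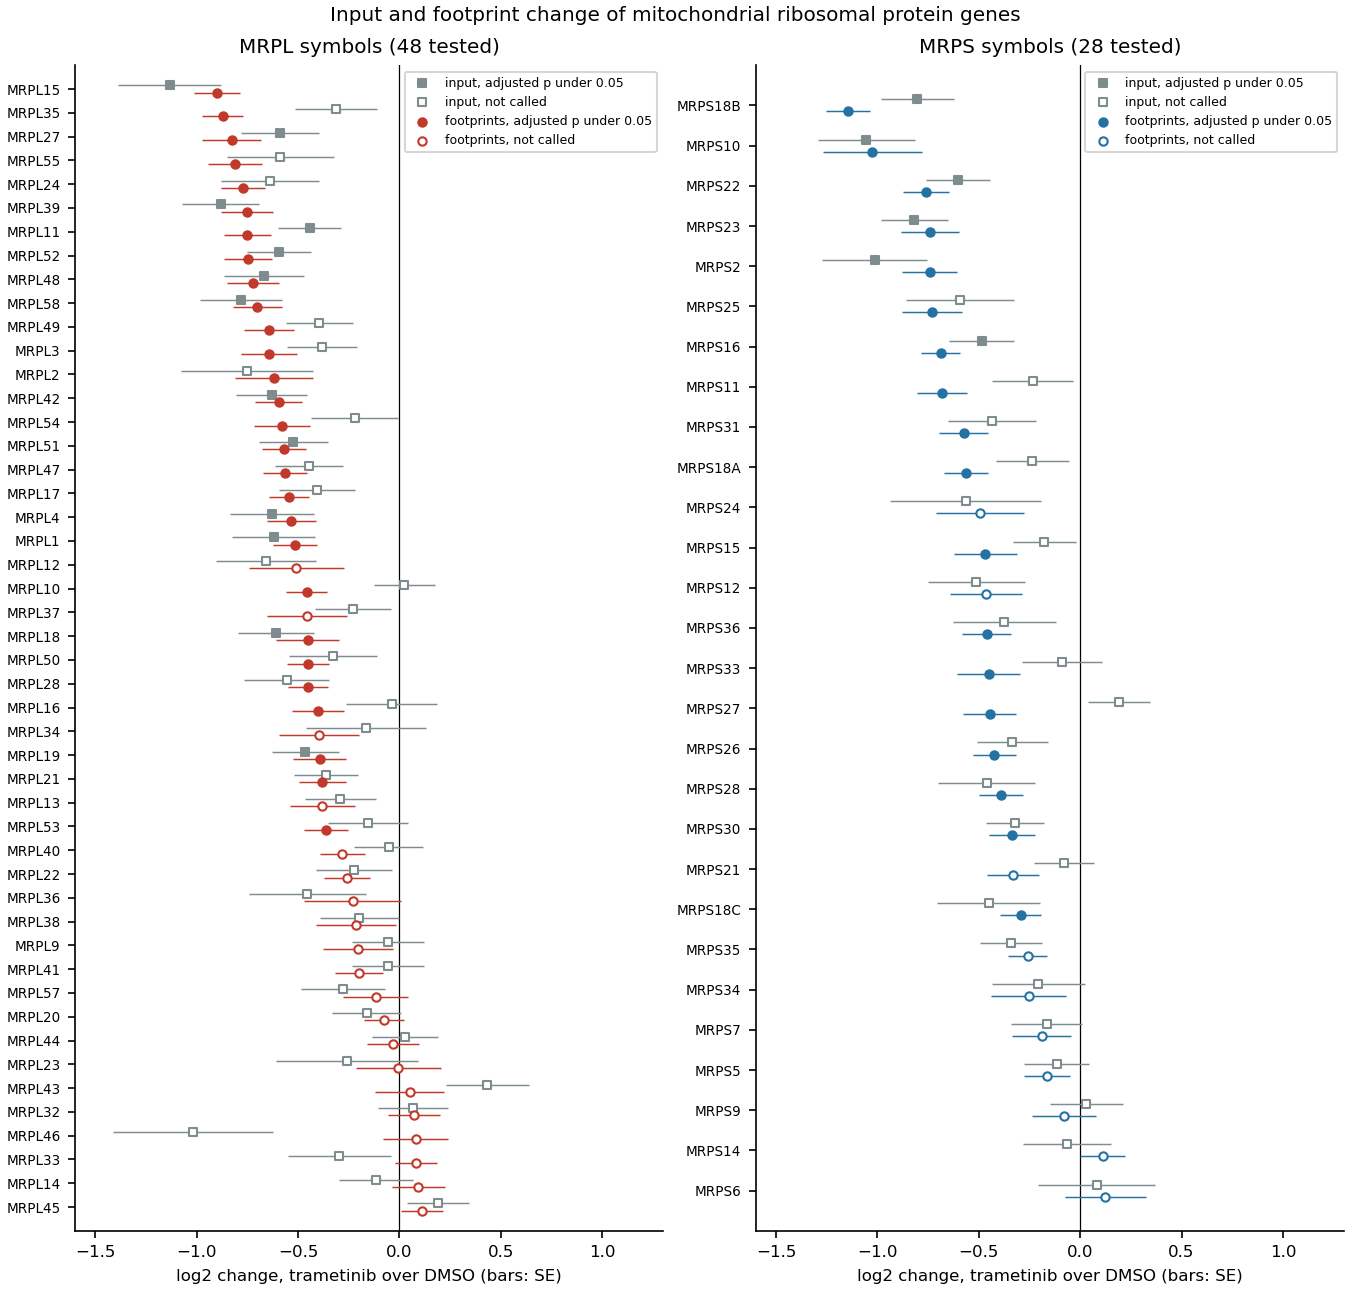
Log2 change (trametinib over DMSO, x axis) in input (grey squares) and footprints (coloured circles) for each tested MRPL gene (left, 48) and MRPS gene (right, 28), sorted by footprint change. Bars are standard errors, filled symbols have an edgeR adjusted p under 0.05, and filled symbols (19 in input, 46 in footprints) lie left of 0 throughout.

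All 19 members lower in input were also lower in footprints, 27 were lower in footprints only and 30 in neither. Of the 1787 genes lower in input among all genes tested, 1581 (88.5%) were lower in footprints too, so that this overlap was near that of genes in general. This does not show that the 27 changed in footprints but not in mRNA, since footprints had smaller standard errors (median 0.12 on the log2 scale over all genes, against 0.19 in input). Both estimates were below 0 in 64 of 76 members. Over the 76 members, input and footprint changes correlated at r = 0.67 (Spearman's rho = 0.70), a description across genes that share libraries.

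The largest footprint falls were those of MRPS18B, MRPS10, MRPL15, MRPL35 and MRPL27. MRPS18B (ENSG00000204568, chr6:30617840-30626395), one of 3 human relatives of bacterial S18 and a small-subunit protein specific to mitochondria, had 176, 197 and 171 CPM in DMSO and 84.8, 78.0 and 82.7 CPM in trametinib footprints. The groups did not overlap, and the change was -1.15 (SE 0.11, edgeR adjusted p = 5.12e-05), or 45.2% of DMSO. Its input fell as well, from 73.6 ± 7.92 to 42.1 ± 7.05 CPM (SD, n = 3), a log2 change of -0.80. MRPS10 fell by 1.03 on the log2 scale in footprints, with 164, 86.5 and 83.5 CPM in DMSO and 58.6, 51.2 and 54.4 CPM in trametinib. As in input, DMSO replicate 1 was high, and without it the change was -0.63 and still called (edgeR adjusted p = 1.24e-04). MRPL15 changed by -0.90 (SE 0.11) to 53.5% of DMSO and MRPL27, a large-subunit protein of bacterial type, by -0.83 (SE 0.15) to 56.3%.

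MRPL35 (ENSG00000132313, chr2:86199355-86213790), another large-subunit protein of bacterial type, was the only member of these 5 not called in input. Its footprints went from 61.3, 64.4 and 67.2 CPM in DMSO to 34.1, 34.7 and 36.6 CPM in trametinib, a log2 change of -0.87 (SE 0.10, edgeR adjusted p = 1.64e-04). Input values were 31.0, 39.9 and 35.4 CPM in DMSO and 31.9, 22.8 and 30.7 CPM in trametinib and overlapped. Its input change was -0.31 (SE 0.20, edgeR adjusted p = 0.26).

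By structural place, 18 of 29 tested bacterial-type proteins and 12 of 21 mitochondria-specific proteins of the large subunit were lower in footprints, with medians of -0.45 in both classes, beside 25.6% of all genes tested called lower in footprints. In the small subunit these counts were 7 of 15 bacterial-type proteins (median -0.39) and 8 of 10 mitochondria-specific proteins (median -0.51). The difference between these classes was not tested. Of the L7/L12 stalk and its base, where translation factors dock, 4 of 5 were lower (MRPL10, MRPL11, MRPL53 and MRPL54), whereas MRPL12 itself, at 18.1 ± 5.62 CPM in DMSO and 12.7 ± 1.41 CPM in trametinib footprints, did not pass the test (edgeR adjusted p = 0.10). Of the central protuberance 4 of 8 were lower. Among them MRPL58, a peptidyl-tRNA hydrolase built into the large subunit, went from 161 ± 19.5 to 99.3 ± 7.34 CPM (SD, n = 3), a log2 change of -0.70 (SE 0.12). In input MRPL58 changed by -0.78 (SE 0.20). Its DMSO input replicate 1 (123 CPM, against 78.3 and 76.3) was high, and without it the change was -0.52, still called.

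The list for the rim of the exit tunnel, where the new chain leaves the ribosome, held 7 proteins and may not be complete. Of these, 3 were lower in footprints (MRPL17, MRPL24 and MRPL39), beside 25.6% of all genes tested. MRPL45, which anchors the ribosome to the inner membrane, had 118, 116 and 133 CPM in DMSO and 136, 133 and 128 CPM in trametinib footprints. These groups overlapped, and its log2 change of 0.11 (SE 0.10, edgeR adjusted p = 0.39) was not called. MRPL23 had low counts, at 13.5 ± 3.25 and 13.4 ± 2.17 CPM in footprints, and a change of -0.00 (SE 0.21) whose sign depended on the scaling. All 3 relatives of bacterial S18 were lower in footprints. MRPS18A, in the large subunit, changed by -0.56 (SE 0.11), from 62.6 ± 5.50 to 42.4 ± 1.37 CPM. MRPS18C, the counterpart of S18 in the small subunit, changed by -0.29 (SE 0.10, edgeR adjusted p = 0.040), from 65.7 ± 4.25 to 53.6 ± 2.64 CPM, and this call was lost when any 1 footprint library was left out, with DESeq2 (adjusted p = 0.055) and with the replicate number as a block (edgeR adjusted p = 0.051).

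MRPS12, a decoding-site protein of the small subunit, went from 22.2 ± 3.54 to 15.9 ± 2.85 CPM in footprints and missed the threshold (log2 change -0.47, edgeR adjusted p = 0.056), but passed it with DESeq2 (adjusted p = 0.046) and limma (adjusted p = 0.0495). MRPS30, the large-subunit protein with a small-subunit name, changed by -0.34 (SE 0.12, edgeR adjusted p = 0.037) in footprints, from 175 ± 18.8 to 139 ± 6.11 CPM. That call was lost in 5 of 6 fits that left out a library, in each but the fit without DMSO replicate 1. MRPS36, the dehydrogenase component that is no ribosomal protein, was also lower, by a log2 change of -0.46 (SE 0.12, edgeR adjusted p = 0.013), and lost its call without trametinib replicate 1 or 2.

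**Figure D2:**
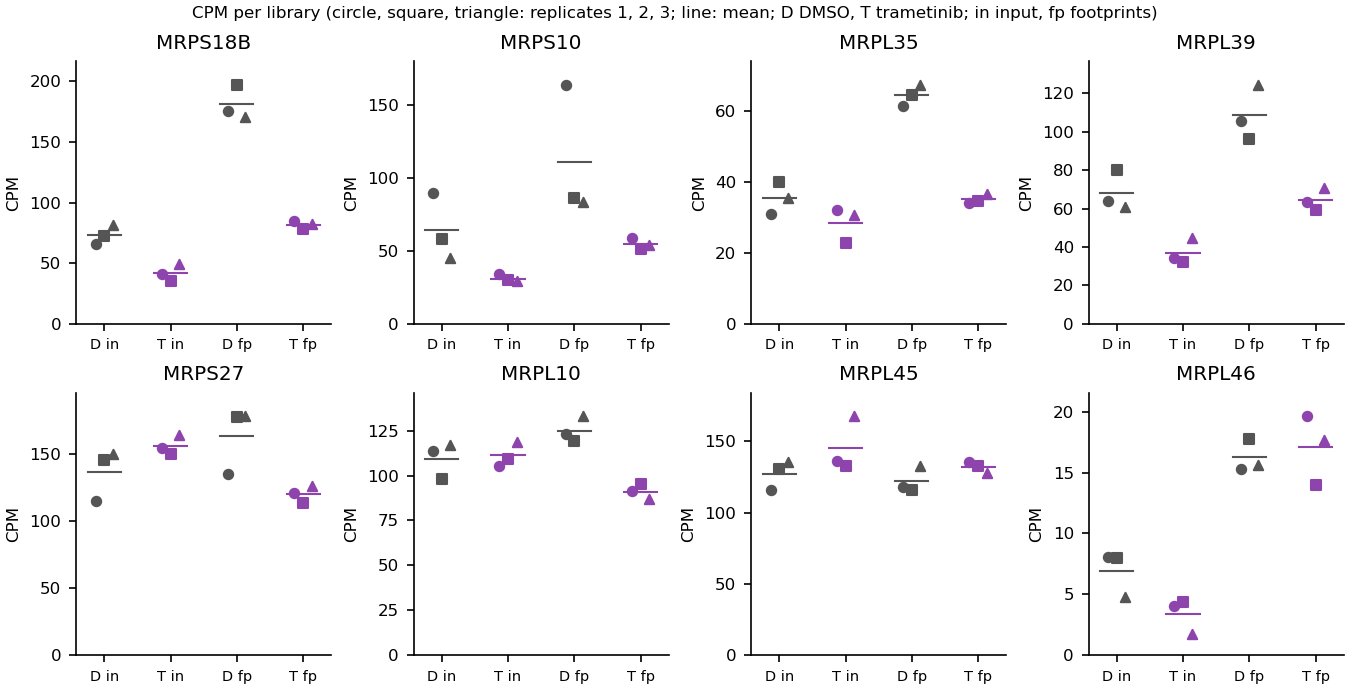
CPM (y axis, from 0) of 8 members in each of the 12 libraries, with replicates 1 to 3 as circle, square and triangle and the group mean as a line. The DMSO and trametinib footprint libraries of MRPS18B, MRPS10, MRPL35, MRPL39, MRPS27 and MRPL10 do not overlap, and those of MRPL45 and MRPL46 do.

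Members as a whole took 0.481% ± 0.0510 of all counts in DMSO input, 0.382% ± 0.00461 in trametinib input, 0.672% ± 0.0570 in DMSO footprints and 0.562% ± 0.0121 in trametinib footprints (SD, n = 3). In each assay the 3 trametinib libraries lay below the 3 DMSO libraries. The counts on MRPL genes over those on MRPS genes came to 1.70 ± 0.0251 in DMSO and 1.72 ± 0.0284 in trametinib input, with ranges that overlapped. In footprints the ratio was 1.62 ± 0.0226 in DMSO (1.60 to 1.64) and 1.68 ± 0.0202 in trametinib (1.66 to 1.70), so that these ranges did not overlap, although the difference was small. With MRPS30 and MRPS18A counted to the large subunit and MRPS36 left out, the ratios were 2.02 and 2.05 in input and 1.89 and 1.98 in footprints.

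**Figure D3:**
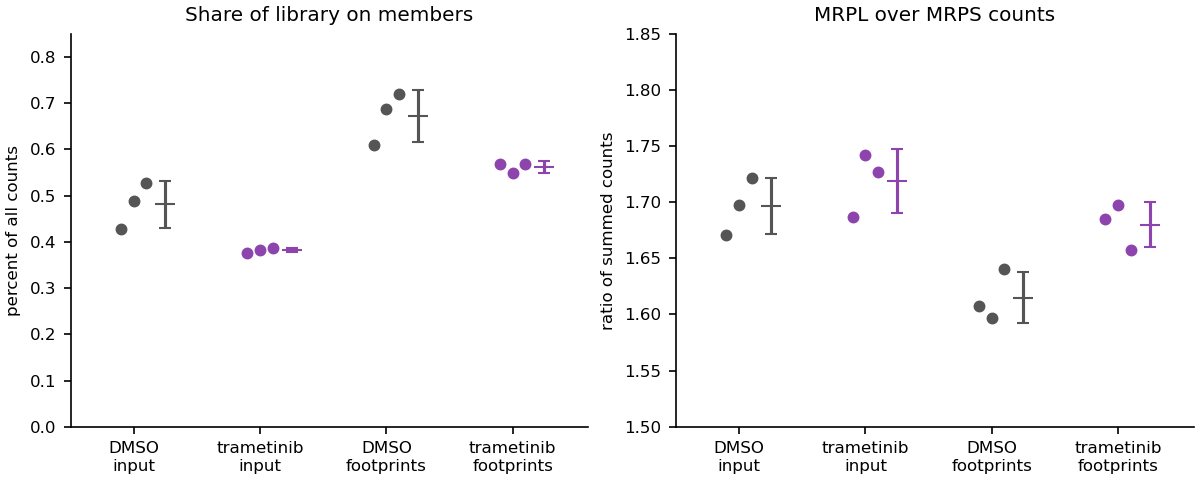
Left, percent of all counts of a library that fell on the 77 members (y axis from 0). Right, summed MRPL counts over summed MRPS counts (y axis from 1.5). Points are the 3 libraries of a group, the bar beside them the mean ± SD. The share is lower in trametinib in both assays, and the ratio differs between treatments without overlap in footprints only.

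Ribosome density, footprints over input, asks whether the members' mRNAs were loaded differently with ribosomes. With all libraries scaled to each other, only changes relative to other mRNAs can be seen. No member was called, neither higher (0.0938% of all genes tested) nor lower (0.816%), by edgeR's interaction test, and none by DESeq2 or limma. At an unadjusted p under 0.05 there was 1 higher member and 3 were lower, 4 of 76 beside 8.81% of all genes tested. The median density change was 0.02, with 0.02 in MRPL and 0.01 in MRPS genes, against 0.07 over all genes tested. The standard error of a gene's density change had a median of 0.23 over all genes, so that a change in a single member of the size seen here for footprints was often not detectable. In cytosolic ribosomal proteins, measured in the same libraries, 55 of 79 genes fell in density with a median of -1.01. Their median input change was 0.20 (9 called higher and 1 lower), and 78 of 79 were lower in footprints with a median of -0.95.

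**Figure D4:**
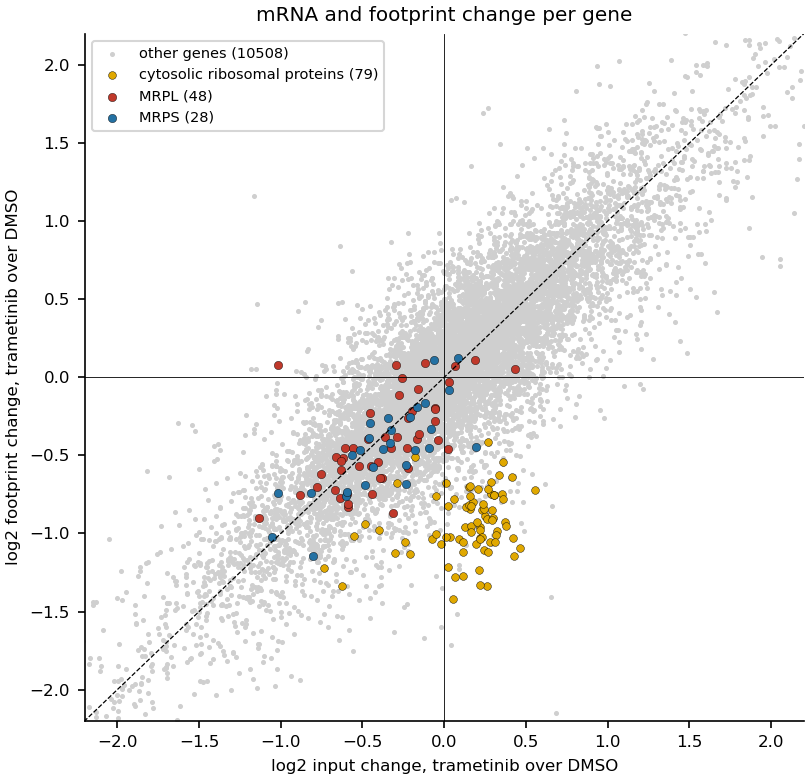
Log2 input change (x axis) against log2 footprint change (y axis), trametinib over DMSO, for 48 MRPL genes (red), 28 MRPS genes (blue), 79 cytosolic ribosomal protein genes (yellow) and 10508 other genes (grey), with equality dashed. Axes end at 2.2 on either side, which leaves 493 genes outside. Members scatter around the dashed line below 0, and the cytosolic ribosomal proteins lie below the line.

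The members with the smallest p for a lower density were MRPS27, MRPL10 and MRPL35. MRPS27 (ENSG00000113048, chr5:72214953-72321717), a small-subunit protein specific to mitochondria, had 115, 146 and 150 CPM in DMSO and 154, 150 and 164 CPM in trametinib input. Its footprints went the other way, from 135, 178 and 178 CPM to 120, 114 and 126 CPM, and the groups did not overlap in either assay. Footprints over input, between libraries of equal number, were 1.22, 1.24 and 1.25 in DMSO and 0.849, 0.820 and 0.846 in trametinib, a log2 density change of -0.56 (SE 0.20, unadjusted p = 0.013, edgeR adjusted p = 0.36). With treatment and number together as a block, the change was -0.56 and still not called (edgeR adjusted p = 0.083). The TOP-like run of MRPS27 held 6 pyrimidines, against 5 in each other member with such a start. A link between this run and density was not tested. MRPL10, at the base of the stalk, had 109 ± 10.1 and 111 ± 6.88 CPM in input, while its footprints went from 125 ± 7.14 to 91.0 ± 4.15 CPM (density change -0.41, SE 0.16, edgeR adjusted p = 0.45). For MRPL35 the density change was -0.48 (SE 0.21, edgeR adjusted p = 0.50). The other members with a TOP-like start had density changes of 0.02 (MRPL44), -0.00 (MRPL45), -0.13 (MRPL53) and -0.28 (MRPS33), with edgeR adjusted p-values from 0.85 to 1.00. RPS6, with the start shown above, changed by -1.05 (SE 0.20, edgeR adjusted p = 0.016).

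In the other direction stood MRPL46, MRPL33 and MRPL14. MRPL46 (ENSG00000259494, chr15:88459477-88467390) had few input counts, with 8.03, 7.97 and 4.77 CPM in DMSO and 4.04, 4.39 and 1.75 CPM in trametinib. Its footprints, at 16.2 ± 1.34 CPM in DMSO and 17.1 ± 2.86 CPM in trametinib (SD, n = 3), overlapped. The density change of 1.18 (SE 0.40, unadjusted p = 0.010, edgeR adjusted p = 0.33) was not called. MRPL33, a short bacterial-type protein, had a change of 0.46 (SE 0.26) and MRPL14, at the interface between the subunits, of 0.28 (SE 0.22), neither of them called (edgeR adjusted p = 0.68 and 0.81). Both estimates moved either way when a library was left out. That of MRPL33 ran from 0.27 without DMSO input replicate 2 to 0.61 without DMSO input replicate 3. That of MRPL14 ran from 0.11 without DMSO input replicate 3 to 0.36 without DMSO footprint replicate 3.

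In DMSO-treated cells, members had more footprints relative to input reads than most genes did. Both assays were counted over the reading frame, so this ratio does not give the number of ribosomes per mRNA molecule. Relative to other mRNAs, footprints over input were higher in 56 of 76 members and lower in 3 (edgeR adjusted p under 0.05), beside 30.8% of all genes tested that were higher and 31% that were lower. The median was 0.76 on the log2 scale against -0.00 over all genes tested. It was 0.76 in MRPL genes (34 of 48 higher) and 0.73 in MRPS genes (22 of 28 higher). Of the 79 cytosolic ribosomal proteins, 7 were higher and 57 lower, with a median of -0.74. Among members, footprints over input correlated with log2 coding length at r = -0.39 (Spearman's rho = -0.41, 72 members). The median was 0.88 in 36 members with a coding length under 600 nt and 0.62 in 36 longer ones, with 31 and 24 called higher.

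**Figure D5:**
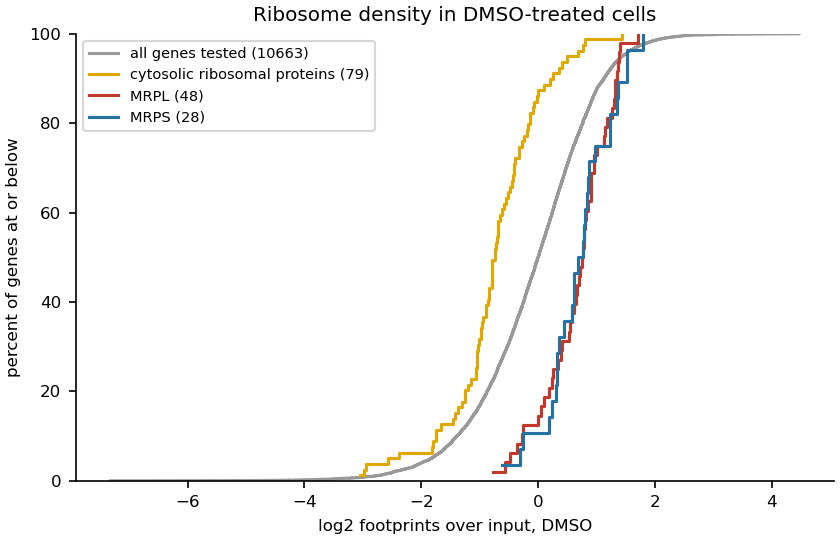
Cumulative share of genes (y axis, percent) at or below a given log2 footprints over input in DMSO (x axis) for all 10663 genes tested (grey), 79 cytosolic ribosomal proteins (yellow), 48 MRPL (red) and 28 MRPS genes (blue). The curves of MRPL and MRPS genes lie close together and to the right of all genes (medians 0.76, 0.73 and -0.00), and that of the cytosolic ribosomal proteins to the left (-0.74).

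The densest member was MRPS18C, with footprints over input of 3.27, 2.87 and 4.87 in DMSO libraries of equal number, a log2 density of 1.80 (SE 0.17, edgeR adjusted p = 5.9e-07). MRPL43, specific to the mitochondrial large subunit, reached 1.71 (SE 0.20), with ratios of 3.49, 3.88 and 2.68, and MRPS36 reached 1.53 (SE 0.17). These 3 did not differ beyond their spread. At the other end MRPL37, also specific to the mitochondrial large subunit, had ratios of 0.529, 0.611 and 0.604, a log2 density of -0.77 (SE 0.21, edgeR adjusted p = 0.0055). MRPS12 followed at -0.61 (SE 0.21), a call that was lost without DMSO input replicate 3 (edgeR adjusted p = 0.16) or without DMSO footprint replicate 1 (edgeR adjusted p = 0.058). MRPL12 had -0.57 (SE 0.25, edgeR adjusted p = 0.060) on the small part of its sequence that could be counted, and was called in both fits with a replicate block. The third member called lower was MRPL11, a stalk-base protein outside the rule for named genes, at -0.35 (SE 0.13). The number of members called lower was 5 with the replicate number, or treatment and number together, as a block, 6 without DMSO input replicate 1 or DMSO footprint replicate 3 and 1 without DMSO input replicate 3 or DMSO footprint replicate 1.

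Genes that work with the mitochondrial ribosome were taken from lists chosen by function. Of 5 ribosomal proteins with other symbols, 3 were lower in footprints and 0 in input, beside 25.6% and 16.8% of all genes tested. They included DAP3, a GTP-binding protein of the small subunit, at -0.60 (SE 0.11, edgeR adjusted p = 0.0019). Of 15 mitochondrial translation factors tested, 4 were lower in input (GFM1, GUF1, TACO1 and SLIRP) and 12 in footprints, 0 were higher, and the footprint median was -0.40. The elongation factor GFM1 changed by -0.77 in input and by -0.83 in footprints. Of 24 assembly and rRNA factors tested, 9 were lower and 2 higher in input (NOA1 and RPUSD4), and 11 were lower and 0 higher in footprints. MALSU1, which keeps an immature large subunit from joining, changed by -1.02 in input and by -0.75 in footprints, and C1QBP by -0.69 and -0.78. In none of these 3 lists was a density change called.

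The 13 mRNAs that the mitochondrial ribosome itself translates gave no call in input or footprints. Their median change was -0.35 in input and 0.43 in footprints. The footprint estimate was above 0 in 5241 of the 10663 genes tested and in 13 of 13 of these mRNAs, which share libraries. Their share of the footprint libraries ran from 0.646% to 1.99% in DMSO and from 2.05% to 2.15% in trametinib, without overlap, but with a wide spread among the DMSO libraries. At an unadjusted p under 0.05 (edgeR), 4 of the 13 passed in input, 1 in footprints and 5 in density change. Of the 10663 genes tested, 4579, 6004 and 939 did so. None of the 13 passed after adjustment with edgeR in input, footprints or density change. In DMSO ribosome density, 11 of the 13 were called lower (edgeR, median -1.79 on the log2 scale), beside 31% of all genes tested. Cycloheximide is known not to act on mitochondrial ribosomes.

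Promoters of members were searched, 250 bases before to 50 after the RefSeq start and on both strands, for 4 short motifs of factors known to bind many genes for mitochondrial and ribosomal proteins. The ETS core CCGGAA, shared by GABPA (also called NRF2) and the ETS factors downstream of ERK, occurred in 39 of 68 windows (57.4%), against 31.7% of 8717 windows of tested genes and 54% of 63 cytosolic ribosomal protein genes. The YY1 core ATGGCGG occurred in 35.3% of members (11.3% of tested genes), the NRF1 core TGCGCA in 20.6% (14.1%) and the E-box CACGTG in 8.82% (10.5%). None of the 4 motifs is contained in another. Of 18 windows of members lower in input, 11 (61.1%) held the ETS core, and of 49 windows of tested members not called, 27 (55.1%) did. Split by the footprint call, 25 of 39 windows of members called lower (64.1%) and 13 of 28 windows of members not called (46.4%) held the ETS core, while 5 (12.8%) and 9 (32.1%) held the NRF1 core. The YY1 core occurred in 12 (30.8%) of the windows called lower in footprints and 12 (42.9%) of those not called. The E-box occurred in 2 (5.13%) and 4 (14.3%). Split by the input call (lower, then not called), the shares were 38.9% and 34.7% for the YY1 core. They were 11.1% and 24.5% for the NRF1 core, and 0% and 12.2% for the E-box. These splits were not tested. The lines below show the cores (in capitals) nearest to the start in 3 members among the 5 with the largest called input falls, with 10 bases on either side (GRCh38.p14, strand of the gene).
MRPS10 (chr6:42217868-42217893, minus strand): cgctgtaaccCCGGAAgcaatcctga
MRPL39 (chr21:25607514-25607539, minus strand): cgcgttcggtTTCCGGgggaggaggg
MRPS23 (chr17:57850036-57850061, minus strand): ccgcttccggTTCCGGtagcagctag
In MRPL39 and MRPS23 the core reads on the opposite strand, as TTCCGG. The window of MRPS2, which fell more in input than MRPL39 and MRPS23, held no ETS core. For MRPL15, the largest of these falls, no promoter window was found. A match says only that these letters are present, and no binding was measured.

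MRPL46 and MRPS11, singled out after their values were seen, start next to each other on opposite strands of chromosome 15, at 88467390 and 88467453. In input MRPL46 changed by -1.02 (SE 0.39) and MRPS11 by -0.23 (SE 0.20), neither of them called. In footprints MRPL46 changed by 0.08 (SE 0.16), whereas MRPS11 changed by -0.68 (SE 0.12, edgeR adjusted p = 0.0019), from 33.8 ± 2.49 to 21.0 ± 1.40 CPM (SD, n = 3). The difference between these 2 genes was not tested.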

How the data were processed

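The table deposited by the authors gives raw counts, the same after division by size factors (a signal), log2 fold changes and adjusted p-values. It also marks genes that the authors listed as 5′TOP or as stemness genes. The fold changes and adjusted p-values, which hold the authors' own comparisons, and these gene marks were not used. According to the methods of the study, reads aligning to rRNA or tRNA were discarded with Bowtie 1.2.2, the others were mapped to Gencode 38, and reads of 25 to 35 nt inside reading frames of 1 symbol only were counted. Input was counted in the same way.

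A gene was tested if 3 or more input libraries held at least 10 counts of it, with edgeR 4.0.16 (R 4.3.3; quasi-likelihood F test, TMM, Benjamini-Hochberg over 10663 genes). Input and footprint changes were fitted on the 6 libraries of each assay, and ribosome density on all 12 with an assay by treatment term. CPM use TMM-scaled sizes within an assay, and footprints over input use sizes scaled over all 12 libraries. Standard errors are the log2 change over the root of F. Coding lengths and coordinates are from Gencode 44 (GRCh38), promoter sequences from RefSeq (GRCh38.p14). The scripts were tested on simulated data. P-values measure the spread between 3 samples per group, called biological replicates in the series' own description. Alternatives were DESeq2 1.42.0, limma 3.58.1, other scalings and filters, replicate blocks and leaving out each library.

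Deviations of equally numbered DMSO and trametinib libraries from their group means correlated at r = 0.110, 0.128 and 0.286 in footprints and 0.0734, 0.0554 and 0.330 in input (8618 genes). Input and footprints of a number may share a lysate, but the sources used here do not tie the numbers across assays. They correlated at 0.804, 0.185 and 0.337 in DMSO and 0.149, 0.0724 and -0.129 in trametinib. Correlations between unequal numbers were not computed, so these values do not show whether the numbers pair libraries. Ratios of footprints to input per number are therefore not known to be matched pairs, and the main density test used no pairing.

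Members and lists were chosen with earlier results of these data known. Members named in full were the 5 with the largest called falls in input and in footprints, the 3 with the smallest p in each direction for density change, the 3 highest and lowest in DMSO density and in input per kb, and MRPL12, MRPL23, MRPL45, MRPL58, MRPS12, MRPS18A, MRPS18B, MRPS18C, MRPS30 and MRPS36.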

Additional observations from a re-analysis of the deposited data

How the results depend on the processing

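Of 316 recomputed counts, medians, ratios and shares, 292 stayed within 1.5 times the reported count or within the spread between replicates, and of 658 values of single members 609 kept their direction and side of the threshold, 24 lost their call, 17 gained one and 8 changed sign. With single libraries left out, members lower in input ranged from 8 to 25 and members higher from 0 to 1. Members lower in footprints ranged from 34 to 58, and members lower in DMSO density from 1 to 6. With library totals, 1 member was higher in footprints and the footprint median was -0.28, and in DMSO density 6 members were lower with a median of 0.62 (all genes -0.14). With the replicate number as a block 46 members were lower in footprints, 25 in input, and 5 in DMSO density, where treatment and number together as a replicate block also gave 5. Without DMSO replicate 1 in both assays, an alternative chosen after seeing the data like the restriction to members with 95% unique 28-base stretches, 6 were lower in DMSO density, and no member was called in density change. Counted by place, large over small subunit was 2.02 (input) and 1.89 (footprints) in DMSO and 2.05 and 1.98 in trametinib. Without cytosolic ribosomal proteins in the total, members took 0.543% of DMSO and 0.440% of trametinib input, and 0.711% of DMSO and 0.581% of trametinib footprints, and without mitochondrially encoded mRNAs 0.505% of DMSO and 0.398% of trametinib input. MRPL23 changed sign in input when a library was left out (-0.4544 to 0.0107) and in footprints with library totals (0.17), limma (0.0060), the replicate block (0.0106) and the contrast over 12 libraries (0.0571), and when a library was left out (-0.18 to 0.20). Footprint calls of MRPS18C and MRPS30 were the least stable of those named. Input depth limits ribosome density: MRPL46 and MRPL23 had under 10 CPM. The cause of these changes was not tested.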
